A study of Mus musculus with 33 samples.

Results

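Splicing factor genes of the SR, hnRNP and RNA-binding motif (Rbm) families were followed through sleep loss and deletion of Mef2c in the mouse frontal cortex. Members were taken by symbol from the 21565 genes of the expression table, as an Srsf gene followed by a number, a symbol starting with Hnrnp, or an Rbm gene followed by a number other than Rbm3, and had to average at least 1 CPM (counts scaled to a common library total) over the 33 libraries. There were 60 members of 69 matching symbols, namely 11 SR, 20 hnRNP and 29 Rbm genes. The rule used symbols and the average level, and no difference between groups. The 9 matching symbols below the minimum were Rbm12, Rbm14, Rbm15b, Rbm31y, Rbm4, Rbm42, Rbm44, Rbm46 and Rbm8a2. Of these, Rbm42, Rbm4, Rbm12 and Rbm14 share 75.4%, 60.5%, 33.1% and 18.6% of their exon length with other annotated genes on the same strand, while Rbm15b, listed at 0 in every library, shares 0.215%. The part of this overlap in their low values was not tested.

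SR proteins bind enhancer sequences in exons and help recruit the spliceosome to nearby splice sites. The hnRNPs coat new transcripts, and many of them repress exons or act for or against an exon depending on where they bind. The Rbm genes are a loose group named for an RNA recognition motif, and include spliceosome components, regulators of alternative exons and proteins of ribosome production. Many of these genes limit their own output through alternative exons that send the transcript to nonsense-mediated decay, and neurons make unusually wide use of alternative splicing.

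The data were strand-specific sequences of polyadenylated RNA from the frontal cortex of adult male mice on a C57BL/6J background, 1 library per mouse. WT mice slept ad libitum (control sleep, CS, n = 6), were kept awake for 6 hr (SD, n = 7), or were deprived for a shorter time and then had 2 hr of recovery sleep (RS, n = 7). Mef2cf/f mice carry loxP sites around an exon of Mef2c and were taken in CS (n = 4) and SD (n = 3). Mef2c-cKO mice carry the same floxed alleles plus a Cre transgene under the Camk2a promoter, which acts in forebrain excitatory neurons, and were taken in CS (n = 3) and SD (n = 3). Deprivation used a slow treadmill, all mice were taken at the same time of day after a period in constant darkness, and per the methods some Mef2c-cKO mice also had recombination outside the brain. Mef2c itself averaged 1147 ± 67.3 rescaled CPM (SD, n = 4) in Mef2cf/f CS and 1431 ± 415 (n = 3) in Mef2c-cKO CS. Counts over the whole gene include the exons that are not deleted, so they do not check the deletion.

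Libraries held 18935045 to 249046089 reads. CPM were divided by a median-of-ratios factor per library before any comparison (called rescaled CPM here), because the factor averaged 0.856 ± 0.0722 (SD, n = 6) in WT CS and 1.03 ± 0.0387 (n = 7) in WT SD. A gene was called a differentially expressed gene (DEG) where limma gave a p of 0.05 or less after Benjamini-Hochberg adjustment over all genes tested and the log2 fold change was 0.3 or more in size. The members' median log2 deviation was 0.16 and 0.37 in WT CS replicates 1 and 2 and -0.10 to 0.08 in the other WT CS libraries, and results that rest on them are given with and without them. All 6 excitatory neuron markers reached 1 CPM in every library. In these bulk samples, fewer cells of a type and less RNA per cell cannot be told apart.

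In WT CS, levels per kilobase of exon ran from 82.2 ± 29.6 (SD, n = 6) rescaled CPM per kilobase for Srsf5 to 0.135 ± 0.0354 for Rbm47. Rbm39 (57.5 ± 10.5), a U2AF-related splicing factor, and Hnrnpu (45.6 ± 11.3), a nuclear scaffold RNA-binding protein, came next. The order is loose, since 57 of the 59 neighbouring pairs overlapped between libraries. Separate neighbours stood only near the bottom of the order, where every library of Rbm20 (2.29 ± 0.591) lay above every one of Rbm4b (1.15 ± 0.120), and those above every one of Rbm38 (0.322 ± 0.129). Rbm20 and Rbm38 are best known from striated muscle and blood.

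**Figure D1:**
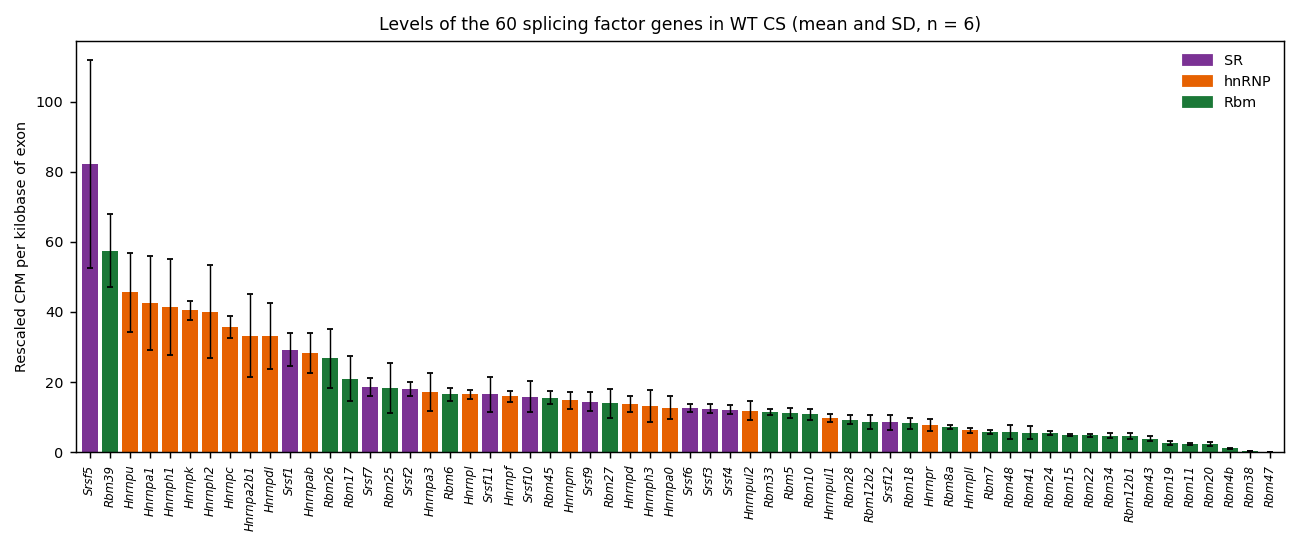
Mean rescaled CPM per kilobase of exon in WT CS for each of the 60 members, ordered by level, with bars coloured by family and the SD over 6 libraries as error bars. SR and hnRNP genes fill most of the upper ranks, led by Srsf5 at 82.2, and the last ranks are Rbm genes, down to Rbm47 at 0.135.

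Members shared features that the rule did not use. Their transcripts had a median GC content of 44.2%, against 49.7% over the genes tested from WT CS to SD that have an annotated transcript. A transcript annotated as a target of nonsense-mediated decay was present for 9 of 11 SR genes (81.8%), 10 of 20 hnRNP genes (50%) and 11 of 29 Rbm genes (37.9%), against 28.6% of all those genes. Reads of such transcripts, and of all other isoforms, are summed in the gene counts, so the values below are not protein levels and do not separate isoforms. Processed copies of several hnRNP genes lie elsewhere in the genome, and reads that map equally well to both were left out by counting unique reads.

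Promoters of 52 members were matched in RefSeq (GRCm38.p6), 68 sequences in all, each from 250 bases before to 50 bases after an annotated start. Their median GC content was 63%, against 52.7% over 32851 promoters. The consensus for MEF2 proteins, searched on both strands, was present in 1 of the 68 (Srsf3) and in 3.19% of all promoters. An ETS site (CCGGAAGT) was present in 7 of 68 (10.3%) against 3.89%, the cAMP response element (TGACGTCA) in 0 of 68 against 1.79%, and the NRF1 consensus in 1 of 68 against 0.971%. Promoters of 4 members are printed: the promoter with the MEF2 match, those of the neighbouring genes Rbm5 and Rbm6, which had lower values together in several comparisons below, and that of Srsf9, whose call withstood most alternatives. Capitals mark the MEF2 match in Srsf3, which begins 19 bases before the start and holds TATAAA within it, the letters of a TATA box, and the other sequences held none of the motifs searched. The positions are chr17:29032410-29032709 (plus strand) for Srsf3, chr9:107770953-107771252 (minus strand) for Rbm5, chr9:107872770-107873069 (minus strand) for Rbm6 and chr5:115326927-115327226 (plus strand) for Srsf9.
Srsf3: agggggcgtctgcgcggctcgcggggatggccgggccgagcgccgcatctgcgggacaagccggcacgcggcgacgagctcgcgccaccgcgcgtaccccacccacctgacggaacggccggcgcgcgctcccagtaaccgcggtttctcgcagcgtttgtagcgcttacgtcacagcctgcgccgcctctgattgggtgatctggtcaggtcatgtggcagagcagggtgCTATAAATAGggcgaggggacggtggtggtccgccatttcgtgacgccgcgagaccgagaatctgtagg
Rbm5: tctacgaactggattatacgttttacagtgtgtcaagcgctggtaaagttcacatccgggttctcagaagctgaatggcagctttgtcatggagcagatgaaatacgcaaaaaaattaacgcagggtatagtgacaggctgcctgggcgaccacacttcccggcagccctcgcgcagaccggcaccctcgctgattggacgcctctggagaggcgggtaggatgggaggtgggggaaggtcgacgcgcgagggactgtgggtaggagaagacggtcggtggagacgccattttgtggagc
Rbm6: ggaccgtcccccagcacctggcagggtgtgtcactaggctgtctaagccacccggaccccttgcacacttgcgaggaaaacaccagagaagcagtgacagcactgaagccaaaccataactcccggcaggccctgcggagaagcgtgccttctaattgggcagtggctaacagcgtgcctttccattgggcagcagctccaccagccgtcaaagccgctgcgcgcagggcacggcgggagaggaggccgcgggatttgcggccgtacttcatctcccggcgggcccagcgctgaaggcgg
Srsf9: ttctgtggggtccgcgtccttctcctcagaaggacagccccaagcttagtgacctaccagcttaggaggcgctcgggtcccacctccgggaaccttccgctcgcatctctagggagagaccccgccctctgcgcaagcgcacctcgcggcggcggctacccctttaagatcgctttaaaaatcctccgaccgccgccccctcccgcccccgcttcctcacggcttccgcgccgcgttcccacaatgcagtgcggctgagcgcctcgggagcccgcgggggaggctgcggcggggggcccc

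From CS to SD in WT mice, members of all 3 families were among the genes that changed, the largest falls being those of Rbm25, Rbm41, Rbm26 and Rbm6, and the share of members that changed was below that of all genes. Of 59 members tested, 19 were DEGs (32.2%), 4 higher and 15 lower in SD, where 45.1% of all 12913 genes tested were DEGs, 24.6% higher and 20.5% lower. After the GC correction Rbm genes were 5 of 12 DEGs (2 higher, 3 lower), and with CPM as deposited 11 of 22 (8 higher, 3 lower). By family, 12 of 28 Rbm genes were DEGs (42.9%, near the share of all genes; 2 higher, 10 lower), 4 of 11 SR genes (1 higher, 3 lower) and 3 of 20 hnRNP genes (1 higher, 2 lower). The median log2 fold change was -0.17 for Rbm, -0.09 for SR and -0.04 for hnRNP genes, against 0.04 for all genes tested. Over all members the median was -0.09, and without WT CS replicates 1 and 2 it was 0.02, with 31 of 59 members above 0. Every SD library lay below every CS library for 5 members (Rbm41, Rbm26, Rbm6, Hnrnpr and Rbm5), while this held for 10.4% of all genes tested, and no member had the opposite separation, which 4.68% of all genes had.

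The members that fell most were Rbm25, Rbm41 and Rbm26. Rbm26, a nuclear RNA exosome-targeting factor on chromosome 14 of GRCm38 (105106751 to 105177327, minus strand), had 158 to 328 rescaled CPM in CS (median 186) and 106 to 136 in SD (median 125). All SD values were below all CS values, with CS replicate 2 at the top. Its log2 fold change was -0.70 ± 0.15 (SE, limma adjusted p = 0.00331). Rbm25, which binds exon enhancers and the U1 particle, had 207 to 524 in CS (median 288) and 153 to 273 in SD (median 171). The groups overlapped through SD replicate 1, whose 273 was well above the other 6 SD libraries (153 to 176). The log2 fold change of Rbm25 was -0.77 (SE 0.20, adjusted p = 0.00925, limma). Rbm41, a protein of the minor spliceosome, had 28.1 to 61.3 in CS (median 33.8) and 17.7 to 25.0 in SD (median 22.5). Its groups did not overlap, and its log2 fold change was -0.71 ± 0.16 (SE, limma adjusted p = 0.00397).

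Rbm6 and its neighbour Rbm5, regulators of exon choice, lie next to each other on chromosome 9, from 107773559 to 107873237 and from 107740371 to 107770996, with 2562 bases between them. Rbm6 had 206 to 275 rescaled CPM in CS (median 225) and 128 to 188 in SD (median 155), with no overlap. Its log2 fold change was -0.55 ± 0.10 (SE, limma adjusted p = 0.00123), the smallest adjusted p among members. Rbm5 had 151 to 208 in CS (median 165) and 126 to 150 in SD (median 133), a narrow separation. Its log2 fold change was -0.32 ± 0.08 (SE, limma adjusted p = 0.00945). The remaining Rbm genes that fell were Rbm48, Rbm27, Rbm12b2, Rbm39 and Rbm11, with log2 fold changes of -0.47 to -0.30. Of the 2 Rbm genes that rose, Rbm38, an RNA-binding target of p53, had 0.383 to 1.41 rescaled CPM in CS (median 0.967) and 1.20 to 2.27 in SD (median 1.52), near the lowest levels measured. Its groups overlapped, and its log2 fold change was 0.64 ± 0.18 (SE, limma adjusted p = 0.0118), the largest rise among the members tested. Rbm38 met the filter of 1 CPM in every library of a group only through SD. That it was tested at all thus depended on its SD level, and its call and rank are given as a description. Rbm19, a factor of ribosome production, had 8.98 to 17.6 in CS and 14.1 to 21.6 in SD, also with overlap, and a log2 fold change of 0.37 ± 0.14 (SE, limma adjusted p = 0.0335). Neither was called after the GC correction (0.07 and 0.0034). Rbm39 had a median of 389 in CS (lowest 312) and of 305 in SD (highest 339), and its groups overlapped.

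Among hnRNP genes, Hnrnpr and Hnrnph2 fell and Hnrnpa0 rose. Hnrnpr, which binds RNA in nucleus and axon, had 140 to 240 rescaled CPM in CS (median 164) and 113 to 139 in SD (median 122). The separation was complete but by a margin of under 1 CPM, and the log2 fold change was -0.45 ± 0.11 (SE, limma adjusted p = 0.00768). Hnrnpa0, which binds AU-rich messages, had 23.2 to 44.8 in CS and 36.8 to 64.9 in SD (log2 fold change 0.47 ± 0.17 SE, limma adjusted p = 0.0287). Hnrnpk, Hnrnpa1, Hnrnpa2b1 and Hnrnpu, also of high level, gave no call on rescaled CPM. Hnrnpk had 243 to 286 in CS (median 260) and 235 to 294 in SD (median 261), which puts the groups on top of each other. The log2 fold change of Hnrnpk was 0.01 (SE 0.08), those of Hnrnpa1 and Hnrnpa2b1 were 0.09 and -0.15 (standard errors 0.20 and 0.21), and that of Hnrnpu was -0.32 (adjusted p = 0.0539, limma). Hnrnpl, which binds CA repeats, had a log2 fold change of 0.26 at an adjusted p of 0.0133 (limma), under the fold threshold.

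Among SR genes, Srsf9 rose and Srsf12, Srsf11 and Srsf10 fell. Srsf9, on chromosome 5 (115327177 to 115333080), had 19.4 to 30.3 rescaled CPM in CS (median 22.7) and 25.4 to 37.8 in SD (median 32.3). The upper CS and lower SD libraries overlapped, and the log2 fold change was 0.46 ± 0.12 (SE, limma adjusted p = 0.00812). Srsf12 (log2 fold change -0.49), Srsf11 (-0.42) and Srsf10 (-0.37), of which Srsf10 and Srsf12 are splicing repressors, passed the test with adjusted p of 0.00945, 0.0369 and 0.0344 (limma). Srsf11 had 100.3 to 211 in CS (median 131) and 91.3 to 129 in SD (median 94.9), so its groups overlapped. Srsf5, the SR gene of highest level, had 204 to 516 in CS (median 302) and 184 to 350 in SD (median 228). The spread of Srsf5 within CS exceeded its difference between groups, and it was not called (log2 fold change -0.44 ± 0.20 SE, limma adjusted p = 0.0807). Srsf1, Srsf2, Srsf3 and Srsf7 were not called either, with log2 fold changes of -0.16, 0.26, 0.17 and 0.15. Over the 20 WT libraries, the genes whose rescaled CPM followed Srsf5 most closely were Bms1, Hmgb1, Thrap3, Ddx46 and Fam161b (the 5 highest Spearman rho over 12155 genes, down to 0.923), of which none is a member. Libraries of all 3 sleep conditions, and their depth and base composition, are shared by these values.

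**Figure D2:**
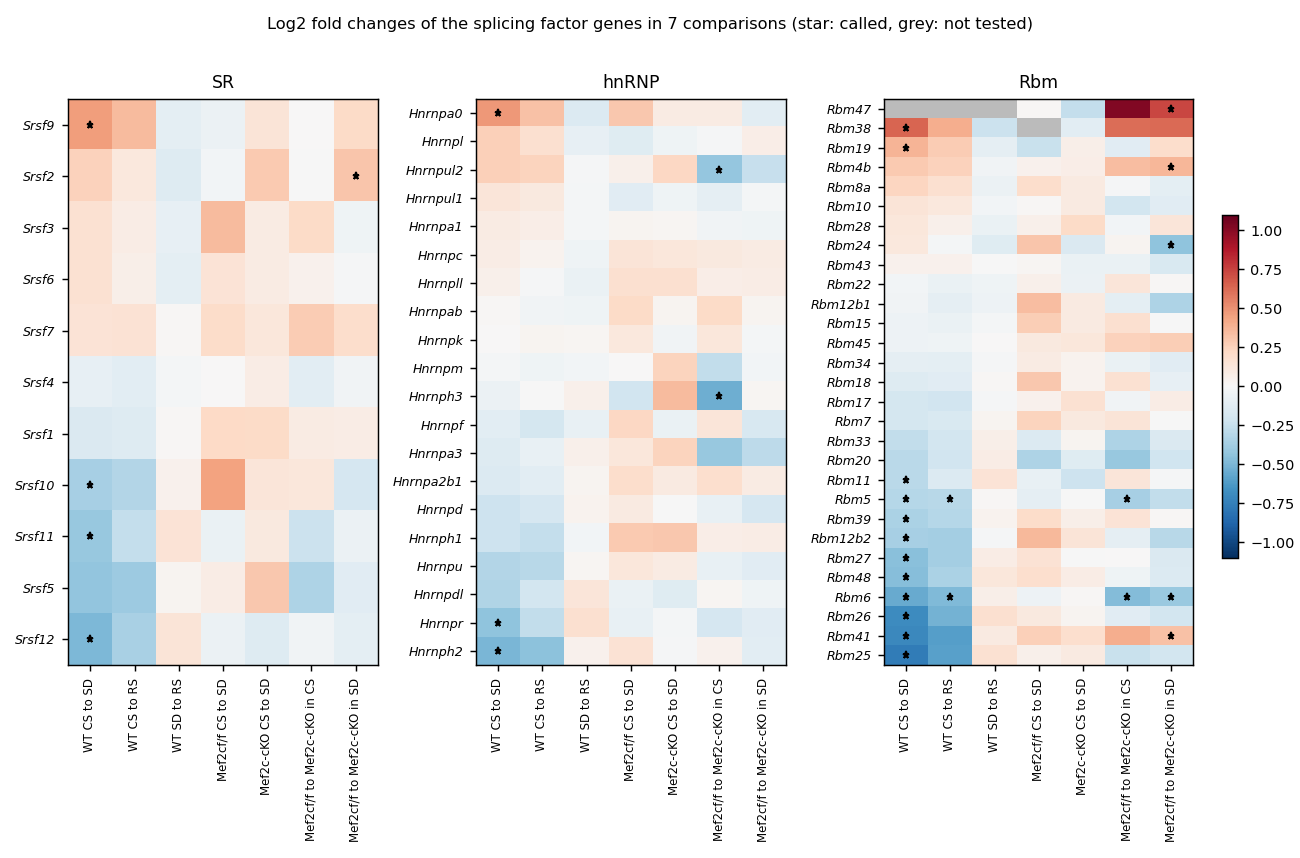
Log2 fold changes on rescaled CPM of the 60 members (rows, by family and ordered by WT CS to SD) in 7 comparisons (columns), red for higher and blue for lower in the second group, with a star on each DEG and grey where a gene was not tested. The WT CS to SD column holds 19 stars, 15 of them on blue cells, the WT SD to RS column is pale throughout, and Rbm6 is starred as lower in 4 columns.

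The direction of these calls depended on how the libraries were scaled. With CPM as deposited, 22 members were DEGs and 19 of them were higher in SD, where 53.5% of all genes were DEGs, 47.3% higher and 6.2% lower, and the median of all genes tested moved to 0.30. When each library was corrected for GC content and length of the transcripts, 12 members were DEGs, 9 higher and 3 lower (21.8% of all genes, 13.7% higher and 8.03% lower), and the median of the members was 0.10 in place of -0.09. Rbm26 and Srsf9 were called in the same direction under all 3 scalings, and Rbm6 under all but the deposited one. After the correction Hnrnpk, Hnrnpll, Hnrnpc, Srsf3, Srsf6, Srsf7, Rbm8a and Rbm4b were also higher in SD, with log2 fold changes of 0.31 to 0.72. Rbm5, Hnrnpr, Rbm11 and Rbm12b2 moved from lower to slightly higher and were no longer called.

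The log2 fold change from WT CS to SD followed GC content, with a Spearman rho of 0.72 across 12442 genes and 0.45 across the 59 members, which share libraries and are not independent. In the lowest of 10 GC bins (31.0% to 41.4%) the median gene had a log2 fold change of -0.42, and the 12 members in it had a median of -0.34. In the second bin (41.4% to 43.9%) the medians were -0.30 over all genes and -0.15 over 15 members. Rbm26 has a GC content of 44.9%, where the bin median was -0.22, and Srsf9 one of 48.9%, where it was -0.02. The correlation of a library's deviations with GC content was negative in every WT CS library (-0.74 to -0.10) and positive in every WT SD library (0.03 to 0.77). It was most negative in WT CS replicates 2 and 3 (-0.74 and -0.68).

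**Figure D3:**
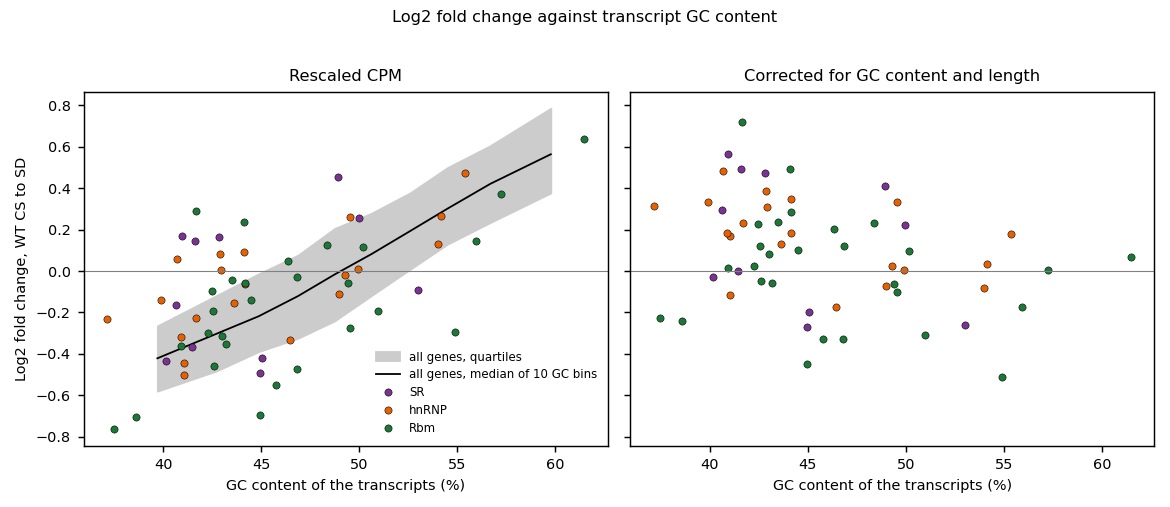
Log2 fold change from WT CS to SD (vertical axis) against the GC content of the transcripts in percent (horizontal axis) for the 59 members tested, as rescaled CPM on the left and after correction for GC content and length on the right. On the left the members lie along the median of all genes (line, with quartiles in grey), which climbs from -0.42 to 0.56 over 10 GC bins, and on the right most members lie above 0.

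Single libraries also moved the count. It was 9 to 22 over the 13 fits that each left out 1 library, at 9 without WT CS replicate 2, 11 without WT CS replicate 1, and 12 without WT SD replicate 2 or 8. Of all genes, 4509 to 6411 were called over these fits, 4509 of 12920 without WT CS replicate 2 and 6411 of 12922 without WT CS replicate 6. Without WT CS replicates 1 and 2 together, a choice made after seeing the data, 8 members were DEGs, 2 higher and 6 lower, where 28.7% of all genes were. The log2 fold changes were then -0.47 for Rbm25, -0.50 for Rbm26 and Rbm41, -0.51 for Rbm6, -0.32 for Srsf12, -0.30 for Hnrnpr and 0.33 for Srsf9, all still called. Those of Rbm5 (-0.22), Rbm27 (-0.24), Rbm39 (-0.27), Hnrnph2 (-0.24), Hnrnpa0 (0.25), Rbm19 (0.22) and Rbm38 (0.42) were no longer called, nor were those of Rbm48, Rbm12b2, Rbm11, Srsf10 and Srsf11. Rbm26, Rbm6, Rbm25, Rbm41, Rbm27, Srsf12, Hnrnpr, Rbm38 and Srsf9 were called in all 13 leave-one-out fits. Rbm38 was tested in them only through its SD libraries.

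Other genes of the splicing machinery were described beside the members. Of all genes tested 24.6% were higher and 20.5% lower in WT SD, and 13.7% and 8.03% after the GC correction. Of 42 core spliceosome genes, 14 were higher and 2 lower in WT SD (median log2 fold change 0.11), among them Sf3b5 (1.58) and Snrpb (1.03). With the GC correction it was 12 higher and 1 lower. Of 28 kinases and relatives of SR proteins, 2 were higher and 8 lower (median -0.22), with Luc7l3 at -0.69 and Srpk2, an SR protein kinase, at -0.39, and the correction left 0 higher and 2 lower. Of 34 neuronal splicing regulators tested, 1 was higher and 16 were lower (median -0.27), with Khdrbs2 at -0.86, Nova1 at -0.78 and Ptbp1 higher at 0.49, and after the correction 2 were higher and 5 lower. Of 14 genes of nonsense-mediated decay, 3 were higher, Upf1 among them (0.78), and 4 lower, near the shares of all genes. After the correction 1 was higher and 1 lower. All 5 erythroid markers were also higher in WT SD, where their summed level was 97.9 to 285 rescaled CPM against 28.2 to 118 in CS, and 3 of 6 astrocyte markers were higher (summed level 1022 to 1306 against 887 to 1351), and their part in the members' values was not tested.

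After recovery sleep, Rbm6 and Rbm5 were below their CS levels. From CS to RS, 2 of 59 members were DEGs, Rbm6 and Rbm5, both lower, where 17.5% of 12752 genes were DEGs, 8.22% lower. Rbm6 had 119 to 200 rescaled CPM in RS (median 171), all below CS, as held for 2.02% of all genes, with a log2 fold change of -0.48 ± 0.12 (SE, limma adjusted p = 0.0335). Rbm5 had 121 to 154 in RS (median 139), which overlapped CS, with a log2 fold change of -0.30 ± 0.09 (SE, limma adjusted p = 0.0402). Both comparisons use the same 6 CS libraries, so the values of RS and SD are given side by side only: Rbm26 had -0.70 in SD and -0.52 in RS, Rbm25 -0.77 and -0.60, Rbm41 -0.71 and -0.60, and Srsf9 0.46 and 0.35. The last 4 were not DEGs in RS. More members were DEGs in other fits, 5 with DESeq2, all lower (26.8% of all genes), and 14 in a fit over all 7 groups, 12 of them lower (36.9%). With CPM as deposited 1 was (20.9% of all genes), Rbm8a, which was higher, and the median of the members turned from -0.11 to 0.07. Without WT CS replicates 1 and 2 none was, nor was any other gene (0% in limma, with 4 members under 0.05 before adjustment), the median was -0.0040, and the log2 fold changes were -0.44 for Rbm6 and -0.21 for Rbm5. The count was 0 to 8 over 13 leave-one-out fits, at 0 without WT CS replicate 1, 2 or 3 or without WT RS replicate 3, 4, 5, 6 or 12, at 8 without WT RS replicate 1, 5 without WT CS replicate 5 and 4 without WT CS replicate 6. Of all genes, 0 to 223 were called in the fits with 0 members. It was 3740 of 12795 genes without WT RS replicate 1, 3012 without WT CS replicate 5 and 3366 without WT CS replicate 6. After the GC correction 1 member was a DEG (4.17% of all genes), Rbm8a, which was higher, and neither Rbm6 nor Rbm5 was called. Hnrnpr had 251 in RS replicate 1 and 104 to 150 in the other 6 RS libraries.

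From SD to RS in WT mice, 0 of 59 members were DEGs (limma, and 0 also with edgeR and DESeq2), and 0 had an unadjusted p of at most 0.05. Of all 12921 genes tested 0.0232% were DEGs in limma, and 683 had an unadjusted p of at most 0.05 (limma). With edgeR 3 of these genes were DEGs, and with DESeq2 54. The members' log2 fold changes lay between -0.24 and 0.17, with a median of -0.0035. The lowest was that of Rbm38 and the highest that of Rbm26.

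**Figure D4:**
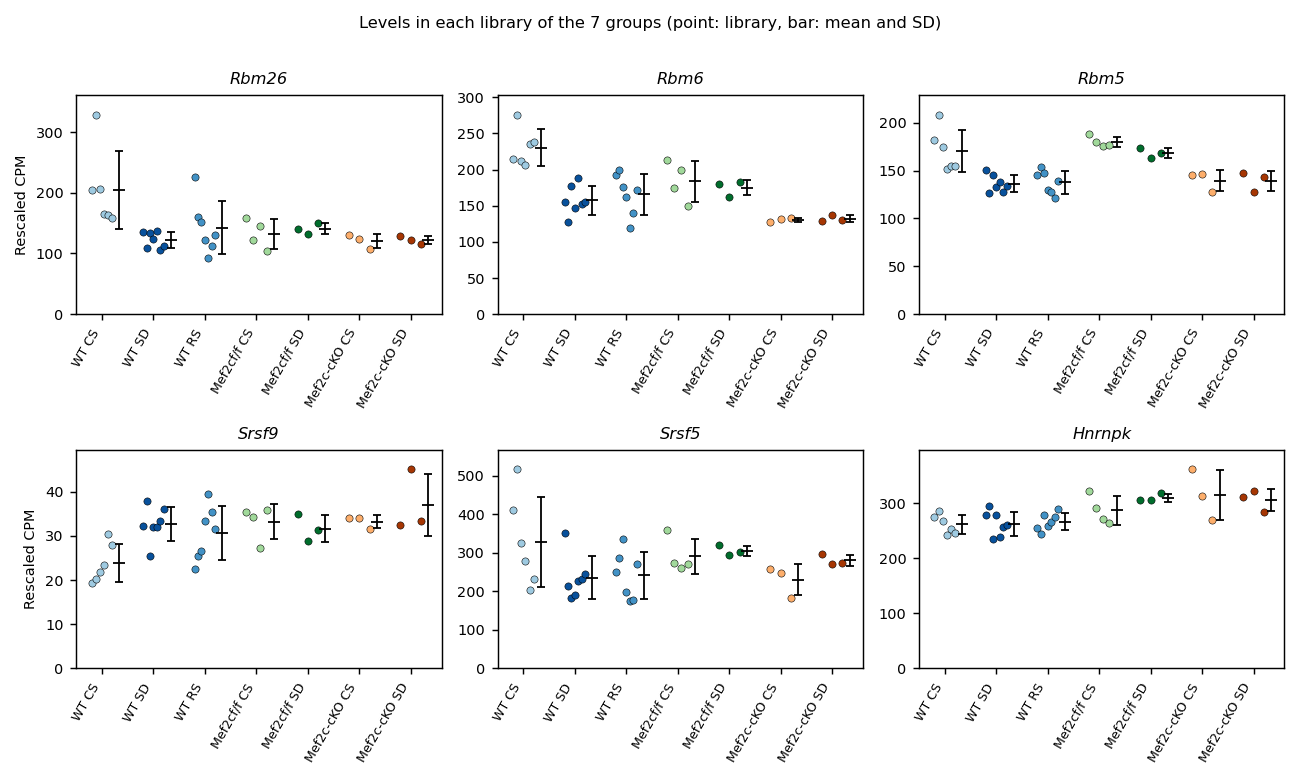
Rescaled CPM of 6 members in each of the 33 libraries by group, 1 point per library, with the mean and SD as a bar beside the points. The means of Rbm26, Rbm6 and Rbm5 are lower in WT SD and RS than in WT CS, that of Srsf9 is higher, Srsf5 spreads from 204 to 516 within WT CS, and Hnrnpk stays near 260 in all WT groups.

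In Mef2cf/f mice, sleep deprivation gave no call among 59 members tested (limma, and 0 also with edgeR and DESeq2), where 0.0403% of all genes were DEGs. An unadjusted p of at most 0.05 (limma) was found for 12 members and for 2111 of all 12410 genes tested. Members had a median log2 fold change of 0.10, with 44 above 0, against -0.0043 over all genes. Groups did not overlap for 7 members, 2 higher and 5 lower, where this held for 17.4% of all genes. Rbm18 had 37.4, 37.5, 39.5 and 41.6 rescaled CPM in CS and 47.8, 48.0 and 48.3 in SD. Its groups did not overlap, and its log2 fold change was 0.30 ± 0.07 (SE, limma adjusted p = 0.119). Srsf10 had 59.0, 77.3, 83.0 and 105 in CS and 99.2, 111 and 114 in SD (log2 fold change 0.44, adjusted p = 0.218, limma). Without Mef2cf/f CS replicate 1, 4 members were DEGs and all higher in SD, Srsf10, Hnrnpa0, Hnrnph1 and Rbm18, where 4.75% of all genes were DEGs.

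In Mef2c-cKO mice 0 of 60 members were DEGs from CS to SD (limma, and 0 also with edgeR and DESeq2). Of all genes 0.0234% were DEGs in limma, and 3 genes were in edgeR and 25 in DESeq2. An unadjusted p of at most 0.05 (limma) was found for 4 members and for 391 of all 12810 genes tested. Groups did not overlap for 6 members, 5 higher and 1 lower, where this held for 9.05% of all genes. Hnrnph3, a small relative of the Hnrnph splicing regulators, had 34.4, 34.8 and 37.4 rescaled CPM in CS and 41.2, 47.0 and 47.9 in SD. Its groups did not overlap (log2 fold change 0.35, SE 0.09), but no member passed the adjustment. In Mef2cf/f mice the same gene had 48.3, 50.5, 53.9 and 54.2 in CS and 43.3, 43.4 and 46.9 in SD, the opposite order. The difference between these responses, tested as an interaction, was 0.56 on the log2 scale (SE 0.11, adjusted p = 0.203, limma) and was not called. In that interaction 0 of 60 members were called in limma, 0 in edgeR and 1 in DESeq2. Of all genes 0.00778% were called in limma, and 59 genes were in DESeq2. An unadjusted p of at most 0.05 (limma) was found for 5 members and for 1005 of all 12860 genes tested.

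The response to SD in Mef2cf/f and in WT mice differed for 8 of 60 members by the interaction test, on the adjusted p alone, where 15.1% of 13106 genes were called. The interaction was above 0 for Rbm41 (0.97), Srsf10 (0.81), Rbm26 (0.80), Rbm12b2 (0.72), Rbm39 (0.56) and Rbm6 (0.49), and below 0 for Rbm19 (-0.62), a factor of ribosome production, and Hnrnpl (-0.40). Their adjusted p in limma were 0.0269 to 0.0493. Rbm41 illustrates the form: its medians were 33.8 in WT CS and 22.5 in WT SD, while Mef2cf/f libraries held 15.5, 21.2, 23.6 and 25.0 in CS and 23.5, 25.5 and 27.1 in SD. Rbm26 in Mef2cf/f mice had 104, 122, 145 and 157.8 in CS and 132, 140 and 150 in SD. All lay below every WT CS library, of which the lowest had 158.2. Rbm19 had 8.98 to 17.6 in WT CS and 14.1 to 21.6 in WT SD, against 12.9 to 15.7 in Mef2cf/f CS and 11.8 to 12.4 in SD. With the GC correction 0 of 60 were called (1.62% of all genes), 0 to 14 when single libraries were left out (0 without Mef2cf/f CS replicate 2 or 4 or Mef2cf/f SD replicate 1 or 3, 1 without WT SD replicate 8, 2 without WT CS replicate 3, WT SD replicate 9 or Mef2cf/f SD replicate 2, 4 without WT CS replicate 1 or WT SD replicate 4, 5 without WT SD replicate 2, 13 without Mef2cf/f CS replicate 1, and 14 without WT CS replicate 5 or 6), and without WT CS replicates 1 and 2 together 4. Of all genes, 23 to 3300 were called over the fits that left out 1 library, 23 of 13136 without Mef2cf/f SD replicate 3 and 3300 of 13111 without WT CS replicate 6. Without WT CS replicates 1 and 2 together it was 1485 of 13115. The listed genes summed on average to 959825 CPM in WT CS and 976768 in WT SD, and to 1000000 in every Mef2cf/f and Mef2c-cKO group. The WT CPM were thus scaled to totals above those of the listed genes, and the Mef2cf/f CPM were not. Whether the WT and Mef2cf/f libraries were counted over different lists of genes is not known. Such a difference and the genotype cannot be told apart.

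Between genotypes in CS, 4 of 60 members were lower in Mef2c-cKO and none was higher, where 7.67% of 12681 genes were DEGs, 4.5% lower and 3.17% higher. The 4 were Hnrnph3, Rbm6, Hnrnpul2 and Rbm5. Hnrnph3 had the values given above, 34.4 to 37.4 in Mef2c-cKO against 48.3 to 54.2 in Mef2cf/f, with a log2 fold change of -0.53 ± 0.08 (SE, limma adjusted p = 0.00999). Rbm6 had 149, 174, 199 and 213 rescaled CPM in Mef2cf/f CS and 127, 131 and 133 in Mef2c-cKO CS (log2 fold change -0.48 ± 0.12 SE, limma adjusted p = 0.0477). All Mef2c-cKO libraries lay below all Mef2cf/f libraries, which vary much more among themselves. Rbm5 had 176, 176, 180 and 188 against 127, 145 and 146 (log2 fold change -0.37 ± 0.08 SE, limma adjusted p = 0.0340). Hnrnpul2, a nuclear RNA-binding protein with a role in DNA repair, had 157, 166, 167 and 168 against 114, 118 and 137 (log2 fold change -0.42 ± 0.09 SE, limma adjusted p = 0.0259).

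Of all members, 16 had groups that did not overlap in this comparison, 11 lower and 5 higher, where 26.9% of all genes tested had such groups, 13.5% lower and 13.4% higher. Leaving out single libraries gave 0 to 4 calls, with 0 without Mef2c-cKO CS replicate 7, 1 without Mef2c-cKO CS replicate 8 or Mef2cf/f CS replicate 2 or 3, and 2 without Mef2cf/f CS replicate 1. Of all genes, 171 to 875 were called over these fits, 171 of 12787 without Mef2c-cKO CS replicate 7. Hnrnph3 was called in 6 of the 7 fits, Hnrnpul2 in 3, and Rbm5 and Rbm6 in 1 each. Markers of other cells moved in the same comparison, where 3.17% of all genes were higher and 4.5% lower. Higher in Mef2c-cKO were 1 of 6 astrocyte, 2 of 6 oligodendrocyte, 1 of 6 inhibitory neuron and 2 of 6 pericyte and fibroblast markers. Lower were 1 of 6 endothelial and 2 of 5 erythroid markers. The summed astrocyte level was 1098 to 2767 rescaled CPM in Mef2c-cKO CS, highest in replicate 8, against 912 to 967 in Mef2cf/f CS, and the erythroid sum was 10.7 to 108 against 123 to 183. None of these markers was at 0, and their part in the members' values was not tested. With CPM as deposited Hnrnph3 alone was called (9.68% of all genes), and after the GC correction all 4 were and Hnrnpa3 with them (9.36%).

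**Figure D5:**
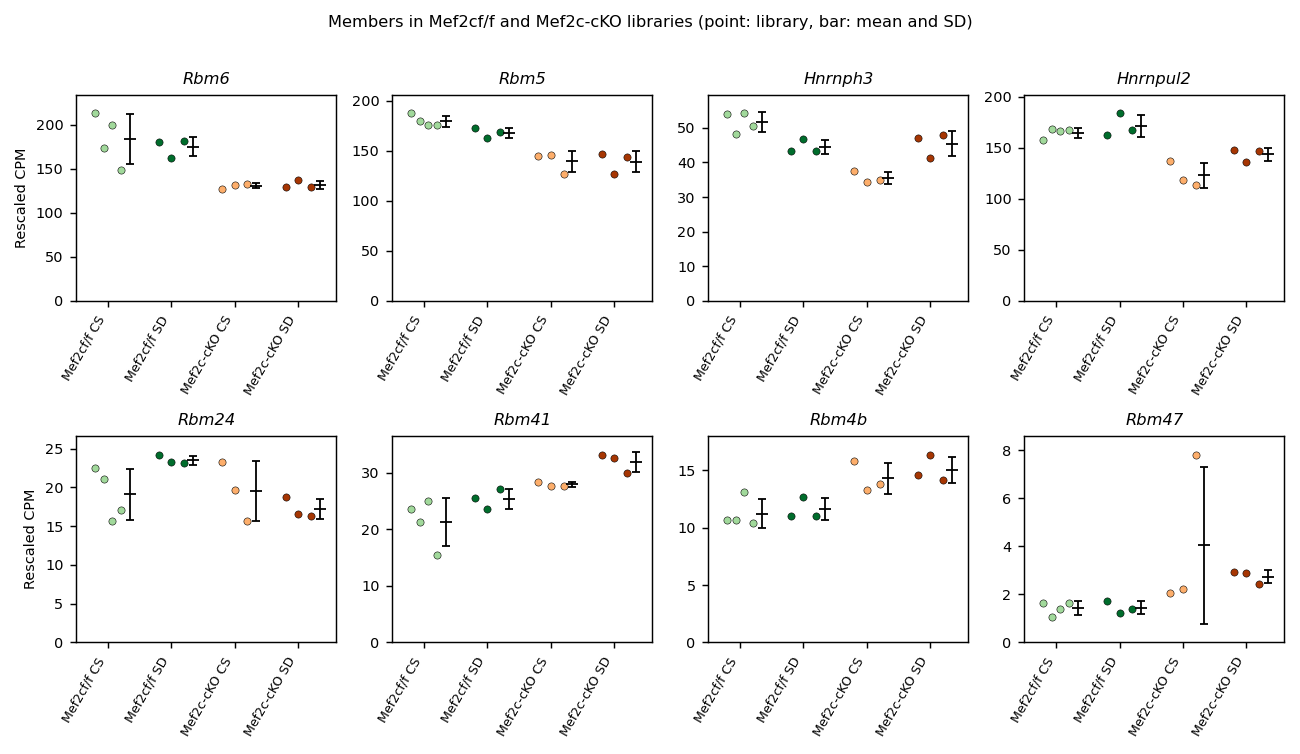
Rescaled CPM of 8 members in the Mef2cf/f and Mef2c-cKO libraries, 1 point per library, with the mean and SD as a bar. Every Mef2c-cKO point of Rbm6 and Rbm5 lies below every Mef2cf/f point in both sleep conditions, those of Hnrnph3 do so in CS and overlap in SD, those of Rbm41 and Rbm4b lie above, and 1 Mef2c-cKO CS library reaches 7.80 for Rbm47.

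In SD, 6 of 60 members differed between the genotypes, 2 lower and 4 higher in Mef2c-cKO, where 15.1% of 12774 genes were DEGs, 5.99% lower and 9.1% higher. Rbm6 was again lower, with 163, 180 and 182 rescaled CPM in Mef2cf/f SD and 129, 130 and 137 in Mef2c-cKO SD (log2 fold change -0.41 ± 0.07 SE, limma adjusted p = 0.00692). Rbm24, a muscle-enriched splicing regulator, had 23.1, 23.2 and 24.2 against 16.3, 16.6 and 18.7 (log2 fold change -0.44 ± 0.08 SE, limma adjusted p = 0.0101). In CS the values of Rbm24 overlapped between the genotypes, 15.6 to 22.5 and 15.6 to 23.3. The interaction for Rbm24 was -0.47 (adjusted p = 0.631, limma), so that no difference between the conditions was shown.

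The 4 members higher in Mef2c-cKO SD were Rbm47, Rbm4b, Rbm41 and Srsf2. Rbm41 had 23.5, 25.5 and 27.1 in Mef2cf/f and 29.9, 32.6 and 33.1 in Mef2c-cKO (log2 fold change 0.32, adjusted p = 0.0302, limma). Rbm4b, a splicing regulator and paralog of Rbm4, had 11.0, 11.0 and 12.7 against 14.1, 14.6 and 16.3 (log2 fold change 0.36, adjusted p = 0.0379, limma). Since the paralog Rbm4 is listed at 0, how reads of the pair were divided is not known. Srsf2, the SR protein of nuclear speckles, had 53.7, 56.0 and 57.0 against 63.6, 66.6 and 77.3 (log2 fold change 0.31, adjusted p = 0.0367, limma).

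Rbm47, which is also a partner of the APOBEC1 editing enzyme, was at the bottom of the range, with 1.22, 1.40 and 1.74 rescaled CPM in Mef2cf/f SD and 2.43, 2.89 and 2.91 in Mef2c-cKO SD (log2 fold change 0.74 ± 0.15 SE, limma adjusted p = 0.0148). In CS it had 2.08, 2.24 and 7.80 in Mef2c-cKO, the last in replicate 8, against 1.05 to 1.66 in Mef2cf/f, and was not called. The same replicate 8 had the highest summed levels of 6 microglia markers (436 rescaled CPM, against 163 and 195 in the other 2) and of 6 astrocyte markers (2767, against 1098 and 1101). In SD, 4 of 6 microglia markers were DEGs higher in Mef2c-cKO, with summed levels of 186 to 204 against 149 to 155. There 2 of 6 astrocyte markers were higher too, with 1169 to 1295 against 983 to 1000.5, and 9.1% of all genes were. All 6 markers of each list were above 0 in every library, and their part in the values of Rbm47 was not tested.

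In the SD comparison, groups did not overlap for 20 of 60 members, 13 lower and 7 higher, where this held for 40.3% of all genes, 18.7% lower and 21.6% higher. Leaving out single libraries gave 2 to 6 calls, with 2 without Mef2cf/f SD replicate 1 or 3. Of all genes, 822 to 2447 were called over these fits, 822 of 12787 without Mef2cf/f SD replicate 1. Rbm6 was called in all 6 of these fits, Rbm24 in 5, Rbm47 in 4, Rbm41 and Rbm4b in 2 and Srsf2 in 1. Rbm6, Rbm24, Rbm41, Rbm4b and Rbm47 were called in the same direction under all 3 scalings, in which 17.1% of all genes were DEGs with CPM as deposited and 13.4% after the GC correction. A fit over all 7 groups, which share 1 estimate of the spread, called none of the 6. Hnrnpa3, Rbm5, Hnrnpul2 and Rbm45 had an adjusted p of at most 0.05 with a smaller change, of -0.29, -0.27, -0.25 and 0.27.

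Of the other splicing genes, 8 of 28 kinases and relatives of SR proteins were lower and none was higher in Mef2c-cKO CS (median -0.19), and 5 were lower in SD (median -0.13), against 4.5% and 5.99% of all genes. After the GC correction 7 were lower in CS and 1 in SD, against 5.03% and 5.26% of all genes. Neuronal splicing regulators were lower for 4 of 34 in CS, and for 7 with 1 higher in SD, and after the correction for 5 in CS and 4 in SD. Core spliceosome genes had 1 lower in CS and 2 higher in SD of 42, where 4.5% of all genes were lower in CS and 9.1% higher in SD. The genotype comparisons of CS and SD use separate mice, and their calls for 60 members share Rbm6, 1 of the 4 calls in CS and 1 of the 6 in SD.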

How the data were processed

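RNA of the frontal cortex was prepared as stranded mRNA libraries and sequenced in pairs. The authors trimmed the reads, mapped them to mm10 with STAR, kept uniquely placed reads in HTSeq counts per gene, and deposited CPM made with edgeR. The annotation release is not given in the sources used here. All 711645 deposited CPM values were whole reads of their library within a tolerance of 0.01, and library depth was recovered from these steps. CPM were divided by a median-of-ratios factor per library, filtered at 1 CPM in every library of at least 1 group, and taken as log2(value + 0.5), which understates changes of low genes. Fits used limma 3.58.1 in R 4.3.3 over the groups compared, all genes, with Benjamini-Hochberg adjustment. DEGs had an adjusted p up to 0.05 and changed by 0.3 or more on the log2 scale, while an interaction needed the adjusted p only. edgeR 4.0.16 and DESeq2 1.42.0 on the recovered reads, CPM as deposited, quantile normalization, other pseudocounts and filters, a correction for GC content and length (splines of 5 and 4 degrees of freedom on GENCODE M21 transcripts, GRCm38), a replicate block and leaving out libraries were alternatives. The scripts were tested on simulated data. Named members were the largest non-overlapping DEGs of each family from WT CS to SD, up to 3 in each direction called elsewhere, and a list of well-known members, with other values chosen after they were seen. Members and lists were chosen with earlier results of these data known. Replicates are separate samples by their labels, and p-values measure the spread between these samples only.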

Additional observations from a re-analysis of the deposited data

Results flagged for a closer look

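Single libraries stood far from the rest of their group, by Dixon's test at 95%, in 10 of 104 tests of 26 members, where chance gives about 1 in 20, or 5.2. WT SD replicate 1 was the high library for Rbm25 (272.81 rescaled CPM, others 153 to 176), Srsf5 (350.493, others 184 to 245), Srsf11 (129.133, others 91.3 to 102) and Srsf1 (156.787, others 143 to 148). WT CS replicate 2 was the high library for Rbm26 (327.802, others 158 to 206) and Rbm41 (61.2712, others 28.1 to 37.2). Hnrnpr reached 251.41 in WT RS replicate 1, Rbm47 1.4539 in WT CS replicate 1, Rbm4b 13.0973 in Mef2cf/f CS replicate 3 and Srsf5 358.229 in Mef2cf/f CS replicate 1. All 10 were the highest value of their group.

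The response to SD differed between Mef2cf/f and WT mice by the limma interaction test for 8 of 60 members, where 15.1% of 13106 genes were called. The difference of log2 fold changes was 0.97086 for Rbm41, 0.806545 for Srsf10, 0.801734 for Rbm26, 0.719677 for Rbm12b2, 0.557579 for Rbm39, 0.491613 for Rbm6, -0.397241 for Hnrnpl and -0.621742 for Rbm19. The interaction over all genes had a Spearman rho of -0.76 with GC content. After the GC and length correction 0 of 60 members were called, where 1.62% of all genes were. The median interaction of the members was 0.20 before the correction and -0.03 after it. The cause of these differences was not tested.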

How the results depend on the processing

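For WT CS to SD, 19 members called became 12 with quantile normalization, 12 with the GC and length correction, 8 without WT CS replicates 1 and 2 (chosen after seeing the data) and 9 to 22 when single libraries were left out, and CPM as deposited gave 19 higher and 3 lower. Of all genes, 5826 of 12913 became, in the same order, 4986, 2708, 3717 and 4509 to 6411, and as deposited 6106 were higher and 801 lower. The correction turned Rbm11 (0.0264), Rbm12b2 (0.0137), Rbm5 (0.0813) and Hnrnpr (0.1716) to above 0, and Rbm5 from CS to RS (0.0094). For WT CS to RS, 2 became 1 as deposited, in the other direction (Rbm8a, higher), 0 without a filter, 5 with DESeq2, 14 in a fit over all 7 groups, 1 with the correction, 0 without WT CS replicates 1 and 2, and 0 to 8 when single libraries were left out. Of all genes, 2232 of 12752 became, in the same order, 2665, 385 of 19317, 3420, 4709, 512, 0 and 0 to 3740. From WT SD to RS and from CS to SD in Mef2c-cKO, leaving out libraries gave 0 to 0, and in Mef2cf/f 0 to 4. All genes called were then 0 to 9, 1 to 3 and 0 to 590. Between genotypes in CS, 4 became 1 as deposited, 1 with quantile normalization, 7 with DESeq2 and 0 to 4 when libraries were left out. Of all genes, 973 of 12681 became, in the same order, 1228, 874, 2095 and 171 to 875. In SD, 6 became 3 with quantile normalization, 0 over all 7 groups, 10 without a fold threshold and 2 to 6 when libraries were left out. Of all genes, 1927 of 12774 became, in the same order, 1431, 690, 2276 and 822 to 2447. The interaction of Mef2c-cKO and Mef2cf/f gave 1 with DESeq2 (59 of 12860 genes) and 0 to 0 when libraries were left out (1 to 2 genes). The interaction of Mef2cf/f and WT fell from 8 to 2 without a filter, 5 with edgeR, 0 with the correction, 4 without WT CS replicates 1 and 2, and 0 to 14 when libraries were left out, and as deposited 3 were higher and 8 lower. Of all genes, 1983 of 13106 became, in the same order, 1142 of 19219, 1674, 205, 1485 and 23 to 3300, and as deposited 507 were higher and 2919 lower. The causes were not tested.

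Pairing by replicate number was not given by the labels, and not every same-numbered pair of libraries deviated together: the correlations were -0.329 to 0.554 between WT CS and SD, -0.726 to 0.333 between WT SD and RS, 0.047 to 0.265 in Mef2cf/f and 0.069 to 0.15 in Mef2c-cKO. Between WT CS and RS all 6 were above 0, from 0.068 to 0.666, with 1 below 0.1. With the number as a replicate block, 0 members were called from WT CS to SD, 13 from WT CS to RS (12 lower) and 0 in the interaction of Mef2cf/f and WT. Of all genes tested, 287 of 12913, 4279 of 12752 and 0 of 13106 were called in these fits. Mef2cf/f and Mef2c-cKO libraries of one sleep condition share no numbers, so no block could be fitted there.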
